A study of Mus musculus with 4 samples.

Results

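The genes described here are Esr1, Pgr, Prlr, Cited1 and Tnfsf11, the receptors and partner genes by which the mammary epithelium senses ovarian hormones and prolactin. They are listed by name, with earlier results of these data known, and they are 5 of 21887 protein-coding genes counted. Chromatin accessibility was read over each gene, over the promoter and distal regions within 100000 bases of it, in the co-accessibility scores between those regions, and in the Esr1 and Pgr columns of the motif scores. That gave 18 of 19204 distinct promoter regions, 126 of 145453 distal regions and 2 of 427 motif columns. The nuclei came from mammary epithelium of CD1 mice, an outbred laboratory strain, sorted as EpCAM-positive and lineage-negative. The fetal group was embryonic day 18 and the adult group was 8 weeks of age, with 2 libraries in each group. The labels give 16 tagmentation wells for each fetal and 32 for each adult library, and effects of this cannot be told apart from those of stage. No treatment, transgene or allele was named in the labels for either group. The labels call the libraries biological replicates but name no litter or animal, so the p-values measure only the spread between these libraries, and they give no sex, which bears on the X-linked gene Cited1.

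Esr1 and Pgr encode the receptors for estrogen and progesterone, nuclear receptors that bind DNA, and Prlr encodes the cell-surface receptor for prolactin, which signals through JAK2 and STAT5. In the adult mammary gland these receptors are found mainly in a mature luminal, hormone-sensing cell type. Cited1 encodes a transcriptional co-activator that works with the estrogen receptor, and Tnfsf11 encodes RANKL, a paracrine factor that hormone-sensing cells produce in response to progesterone.

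The 4 libraries held 882 to 2804 nuclei and 6028168 to 19304830 reads, and no barcode was shared between libraries. Both ends of a DNA fragment are listed as separate reads, so read counts overstate the number of independent fragments. The deposited table places each nucleus in 1 of 14 classes without naming them. By marker lists that leave out the 5 genes described here, classes 2 and 11 were mature luminal-like, with 7 and 5 of 8 markers raised. Classes 3 and 7 were luminal progenitor-like with 7 of 8 markers each. Classes 1, 8 and the fetal class 4 were basal-like with 9, 9 and 7 of 10. Fetal classes 5 and 9 had 4 and 5 of 8 luminal progenitor markers raised and 3 and 4 of 5 general luminal ones, and they are called luminal-like. Class 6 was stromal-like with 8 of 8, and classes 10, 12, 13 and 14 are given by number. Only 10 of 2577 fetal nuclei lay in classes 2 and 11, against 2076 of 5269 adult nuclei. In a library sum, fewer nuclei of a class and less accessibility per nucleus cannot be told apart. No doublet caller was run. Summed levels of markers of cells outside the epithelium ranged over the 4 libraries from 198 to 211 CPM for 8 stromal, 137 to 155 for 4 endothelial and 72.5 to 76.1 for 5 immune markers. Those of 10 basal markers overlapped between the stages (544 and 583 fetal, 459 and 562 adult), and those of 8 luminal progenitor markers were higher in the fetal (323 and 316) than in the adult libraries (302 and 279). Those of 8 mature luminal markers were lower in the fetal (498 and 565 CPM) than in the adult libraries (668 and 641), as were those of 5 general luminal markers (406 and 411 against 571 and 489), and the part of any of these in the results was not tested.

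The annotated start sites are shown first because the data below differ between them. RefSeq (GRCm38.p6) gives 10 start windows of 300 bases for the 5 genes, each from 250 bases before to 50 bases after the start site. Windows were searched on both strands for 5 strings: GGTCA and TGACC with 3 bases between them (estrogen response element), GNACA and TGTNC with 3 bases between them (progesterone or glucocorticoid response element), TGTTTAC (forkhead), TTCNNNGAA (STAT) and TGANTCA (AP-1). Of all 21263 RefSeq windows, 0.0517%, 0.442%, 3.01%, 7.69% and 6.99% hold these strings, in that order. No string was present in 7 of the 10 windows, and neither of the hormone response strings was present in any of them. The remaining 3 windows held 4 matches, and capitals mark them here. Esr1 start 1 lies at chr10:4611739-4612038, Esr1 start 2 at chr10:4709908-4710207, Pgr start 1 at chr9:8899583-8899882, and Prlr starts 1 to 3 at chr15:10176988-10177287, chr15:10223656-10223955 and chr15:10293401-10293700, all on the plus strand.
Esr1 start 1: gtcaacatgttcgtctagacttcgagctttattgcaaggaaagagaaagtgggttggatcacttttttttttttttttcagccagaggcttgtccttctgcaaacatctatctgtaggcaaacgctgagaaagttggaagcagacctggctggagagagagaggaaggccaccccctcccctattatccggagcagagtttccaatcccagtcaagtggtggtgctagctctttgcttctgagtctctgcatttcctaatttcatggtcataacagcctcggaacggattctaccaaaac
Esr1 start 2: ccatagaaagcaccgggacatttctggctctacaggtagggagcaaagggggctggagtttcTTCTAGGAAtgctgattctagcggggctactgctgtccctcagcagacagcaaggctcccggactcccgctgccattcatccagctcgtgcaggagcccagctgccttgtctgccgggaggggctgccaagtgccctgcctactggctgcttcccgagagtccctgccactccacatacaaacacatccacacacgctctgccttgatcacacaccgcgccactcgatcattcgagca
Pgr start 1: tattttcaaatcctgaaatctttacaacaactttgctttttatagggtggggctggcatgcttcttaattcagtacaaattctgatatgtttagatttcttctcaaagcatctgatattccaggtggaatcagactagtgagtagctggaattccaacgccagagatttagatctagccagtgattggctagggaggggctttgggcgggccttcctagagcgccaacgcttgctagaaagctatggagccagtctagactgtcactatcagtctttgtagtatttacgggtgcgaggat
Prlr start 1: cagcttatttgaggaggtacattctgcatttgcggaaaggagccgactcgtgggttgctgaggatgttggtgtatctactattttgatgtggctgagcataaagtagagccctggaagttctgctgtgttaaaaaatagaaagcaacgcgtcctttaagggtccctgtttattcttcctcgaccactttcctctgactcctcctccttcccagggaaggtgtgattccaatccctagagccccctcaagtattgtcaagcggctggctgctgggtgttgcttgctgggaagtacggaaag
Prlr start 2: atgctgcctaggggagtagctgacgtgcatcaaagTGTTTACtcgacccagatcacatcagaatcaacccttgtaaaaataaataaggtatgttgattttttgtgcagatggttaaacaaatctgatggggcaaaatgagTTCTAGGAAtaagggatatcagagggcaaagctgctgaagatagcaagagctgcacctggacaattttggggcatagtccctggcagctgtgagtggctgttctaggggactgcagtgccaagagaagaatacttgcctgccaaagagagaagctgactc
Prlr start 3: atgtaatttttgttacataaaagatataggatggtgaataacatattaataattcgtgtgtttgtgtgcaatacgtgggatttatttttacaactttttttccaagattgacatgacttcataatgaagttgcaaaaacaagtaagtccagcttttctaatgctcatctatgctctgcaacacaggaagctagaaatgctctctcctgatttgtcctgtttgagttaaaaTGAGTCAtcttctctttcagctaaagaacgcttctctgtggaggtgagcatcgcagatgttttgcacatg
The STAT string was TTCTAGGAA both in Esr1 start 2, 188 bases before the start site, and in Prlr start 2, 110 bases before it. Prlr start 2 also held the forkhead string 215 bases before the start site, and Prlr start 3 held TGAGTCA 20 bases before it. A match describes the letters only.

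The first question was whether accessibility over the whole gene differed between the stages. Reads were counted over each gene with 2000 bases on either side and given as CPM, reads per 1000000 reads over all tested gene spans. Fetal libraries had lower levels of all 3 receptor genes, while Cited1 and Tnfsf11 did not pass the test. Of the 5 genes, 3 were called, all lower in fetal nuclei, against 22.2% of 18808 gene spans called in either direction and 10.9% called lower in fetal nuclei.

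Esr1 (chr10:4611989-5005633, plus strand) was at 111 and 130.3 CPM in fetal replicates 1 and 2 and at 193 and 229 in adult replicates 1 and 2. The stages did not overlap, and the stage means were 121 ± 13.4 and 211 ± 25.7 CPM (SD, n = 2), a log2 difference of -0.80 (SE 0.12, edgeR adjusted p = 0.00048). Pgr (chr9:8898900-8968611, plus strand) was at 59.3 and 61.0 CPM in the fetal and 137 and 149 in the adult libraries. This gap was wider, with means of 60.2 ± 1.22 and 143 ± 8.38 CPM (SD, n = 2) and a log2 difference of -1.25 (SE 0.114, edgeR adjusted p = 1.69e-05). Prlr (chr15:10177238-10349190, plus strand) was at 55.7 and 71.4 CPM in the fetal and 188 and 189.9 in the adult libraries. It had the largest difference of the 5 genes, a 2.94-fold higher adult level and a log2 difference of -1.56 (SE 0.127, edgeR adjusted p = 7.55e-06).

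Cited1 (chrX:102247378-102252181, minus strand) was at 23.4 and 25.4 CPM in the fetal and 29.9 and 33.4 in the adult libraries. These groups did not overlap, but the log2 difference of -0.37 (SE 0.157) did not pass the test (edgeR adjusted p = 0.114). Tnfsf11 (chr14:78277446-78308043, minus strand) was at 21.3 and 24.2 CPM in the fetal and 16.2 and 19.6 in the adult libraries. The fetal libraries were again apart from the adult ones, here above them, with a log2 difference of 0.35 (SE 0.185, edgeR adjusted p = 0.196). Per kilobase of the window counted, adult levels were 3.59 CPM for Cited1, 1.94 for Pgr, 1.07 for Prlr, 0.531 for Esr1 and 0.517 for Tnfsf11. The short Cited1 gene thus had the highest level per length, and the long Esr1 gene was close to Tnfsf11.

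The stage values were also computed without classes 2 and 11, which are almost absent from the fetal libraries. The change from one setting to the other was not tested. With the nuclei of these classes left out, the Esr1 difference was -0.29 (edgeR adjusted p = 0.152) and the Pgr difference was -0.13 (edgeR adjusted p = 0.589), and neither passed the test. The Prlr difference was -0.90 and still passed (edgeR adjusted p = 0.00149). Tnfsf11, higher in fetal nuclei in both settings, moved from 0.35 to 1.02 and then passed (edgeR adjusted p = 0.0143). The Cited1 difference turned sign, from -0.37 to 0.045, and did not pass. Counting only 1000 bases on either side of the gene start gave smaller differences for the receptors, -0.52 for Esr1, -0.28 for Pgr and -0.19 for Prlr, none past the test. These windows are centred on the first base of the gene span, so for Pgr the RefSeq start site lies near the edge of its window.

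**Figure D1:**
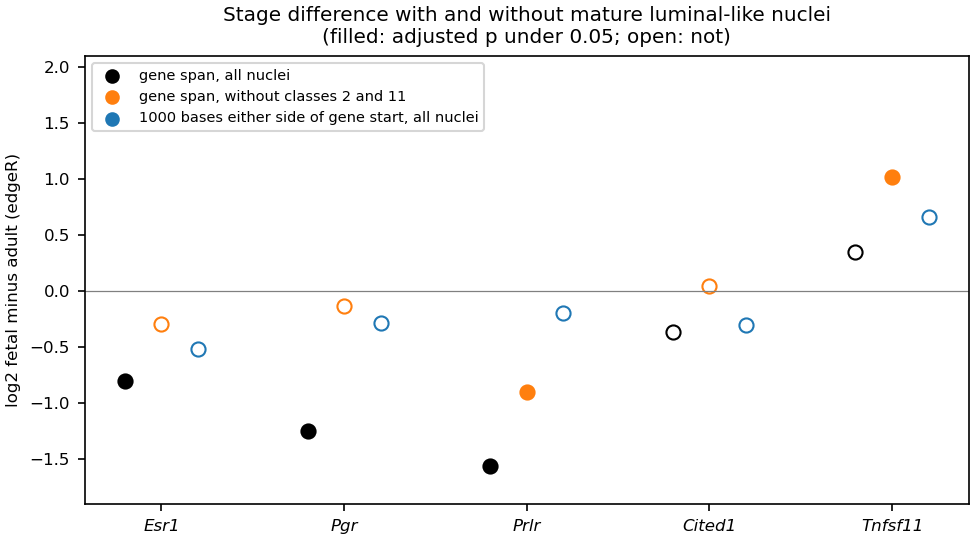
Log2 difference (fetal minus adult, edgeR) of each gene on the y axis, for the gene span with all nuclei, for the gene span without classes 2 and 11, and for 1000 bases on either side of the gene start. Filled points passed an adjusted p of 0.05. Esr1 and Pgr moved from -0.80 and -1.25 to -0.29 and -0.13 without these classes, Prlr stayed called at -0.90 and Tnfsf11 became called at 1.02. The direction of these moves was set by leaving out classes with high adult levels of each gene.

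Levels by class were described next. Classes were made by the authors from these same nuclei, so differences between classes are described and not tested. Class levels are CPM of the reads over all gene spans in that class and library, for classes with at least 50 nuclei in a library.

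The 3 receptor genes were highest in the mature luminal-like classes 2 and 11. Pgr reached 244 and 271 CPM in class 2 and 232 and 225 in class 11 (adult replicates 1 and 2). In luminal progenitor-like nuclei it was at 39.7 and 70.2 CPM (class 3) and 36.3 and 35.4 (class 7), and in basal-like nuclei at 44.5 and 64.3 (class 1) and 56.9 and 70.5 (class 8). Every value of classes 2 and 11 lay above every value of the other named adult classes. Of the adult classes given no name, class 14 was at 218 CPM in adult replicate 2, and class 10 at 157 and 101. Taking the classes together, Pgr was 6.45-fold and 4.91-fold higher in mature luminal-like than in luminal progenitor-like nuclei of the same library. At least 2-fold in both libraries, on log2(CPM + 1), was reached by 3.5% of 18808 gene spans, and of the 5 genes by Esr1 and Pgr. Over basal-like nuclei it was reached by Pgr and Prlr, against 5.68% of gene spans.

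Prlr was graded across the adult classes. It was at 285 and 299 CPM in class 2 and 297 and 249.8 in class 11, at 145 and 177 in class 3 and 109 and 132 in class 7, and at 40.1 and 35.3 in class 1 and 78.9 and 105 in class 8. Luminal progenitor-like nuclei therefore stood between the mature luminal-like and the basal-like ones, 2.1-fold and 2.3-fold above the latter, a step that 3.37% of gene spans reached in both libraries. The corresponding ratios of Pgr were 0.748 and 0.770, and those of Esr1 0.828 and 0.822. Fetal Prlr levels ran from 44.3 CPM (class 9, fetal replicate 1) to 84.5 (class 13, fetal replicate 2), below every luminal progenitor-like value.

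Esr1 was at 273 and 318 CPM in class 2 and 262 and 334 in class 11. Outside these classes it was never near 0. Of the classes given no name, class 14 was at 273 CPM (adult replicate 2, its 1 library with at least 50 nuclei), class 10 at 226 and 182, and class 13 at 188 (fetal replicate 2). Its next named classes were the stromal-like class 6 (117 and 238), the basal-like classes 8 (108 and 192) and 1 (163 and 130.0), class 3 (133 and 161) and the fetal basal-like class 4 (142 and 148). The means of classes 6, 8, 3, 1 and 4 lay between 145 and 177 CPM and the ranges of their libraries overlapped. Mature luminal-like nuclei were 2.36-fold and 2.50-fold above luminal progenitor-like ones. The lowest mean, 93.1 ± 7.43 CPM (SD, n = 2), was in fetal class 5.

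Cited1 was at 44.0 and 50.4 CPM in class 2 and 34.6 and 31.3 in class 11. Classes 13 and 14, each with 1 library, had 43.3 and 47.4. Class 10, at 26.4 and 40.3, overlapped class 11, and fetal class 5 reached 32.7 in fetal replicate 1. Levels in other classes included 25.7 and 21.0 in class 3, 24.2 and 25.5 in fetal class 9 and 21.3 and 24.6 in fetal class 4. Class 2 was above class 11 in each adult library, and the stromal-like class 6 had the lowest mean with 12 and 13.6 CPM. Class 8 rested on 4 and 34 reads, and its libraries, at 7.34 and 26.0 CPM, were further apart than most classes were from each other.

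Tnfsf11 had a different order. It was at 63.0 and 41.4 CPM in class 11 but at only 15.4 and 20.3 in class 2, although the receptor genes were at like levels in both classes. The ratio of class 11 to class 2 was 4.09 in adult replicate 1 and 2.04 in adult replicate 2, on 62 and 94 reads in class 11. On log2(CPM + 1) these are differences of 1.96 and 0.99, so the second falls just short of the 2-fold step that 2.03% of gene spans reached in both libraries. Esr1, Pgr and Prlr had ratios between 0.831 and 1.05, and Cited1 had 0.786 and 0.621. Classes 2 and 11 also differed in the share of reads in promoter regions, 25.7% and 23.3% in class 2 against 21.1% and 18.6% in class 11, and the part of this in the Tnfsf11 difference was not tested.

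The next highest Tnfsf11 levels were fetal. Class 12 had 41.6 and 36.1 CPM and the basal-like class 4 had 41.1 and 31.5, against 16.9 and 17.2 in class 5 and 14.1 and 22.6 in class 9. Class 4 was 2.75-fold and 1.5-fold above the fetal luminal-like classes together, short of 2-fold in both libraries, which 1.2% of gene spans reached. Adult basal-like nuclei were much lower, 8.90 and 13.9 CPM in class 1 and 11.0 and 14.6 in class 8, so that no adult basal-like value reached a value of fetal class 4. Class 12 had 4 of 10 basal and 3 of 8 stromal markers raised and stays unnamed.

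**Figure D2:**
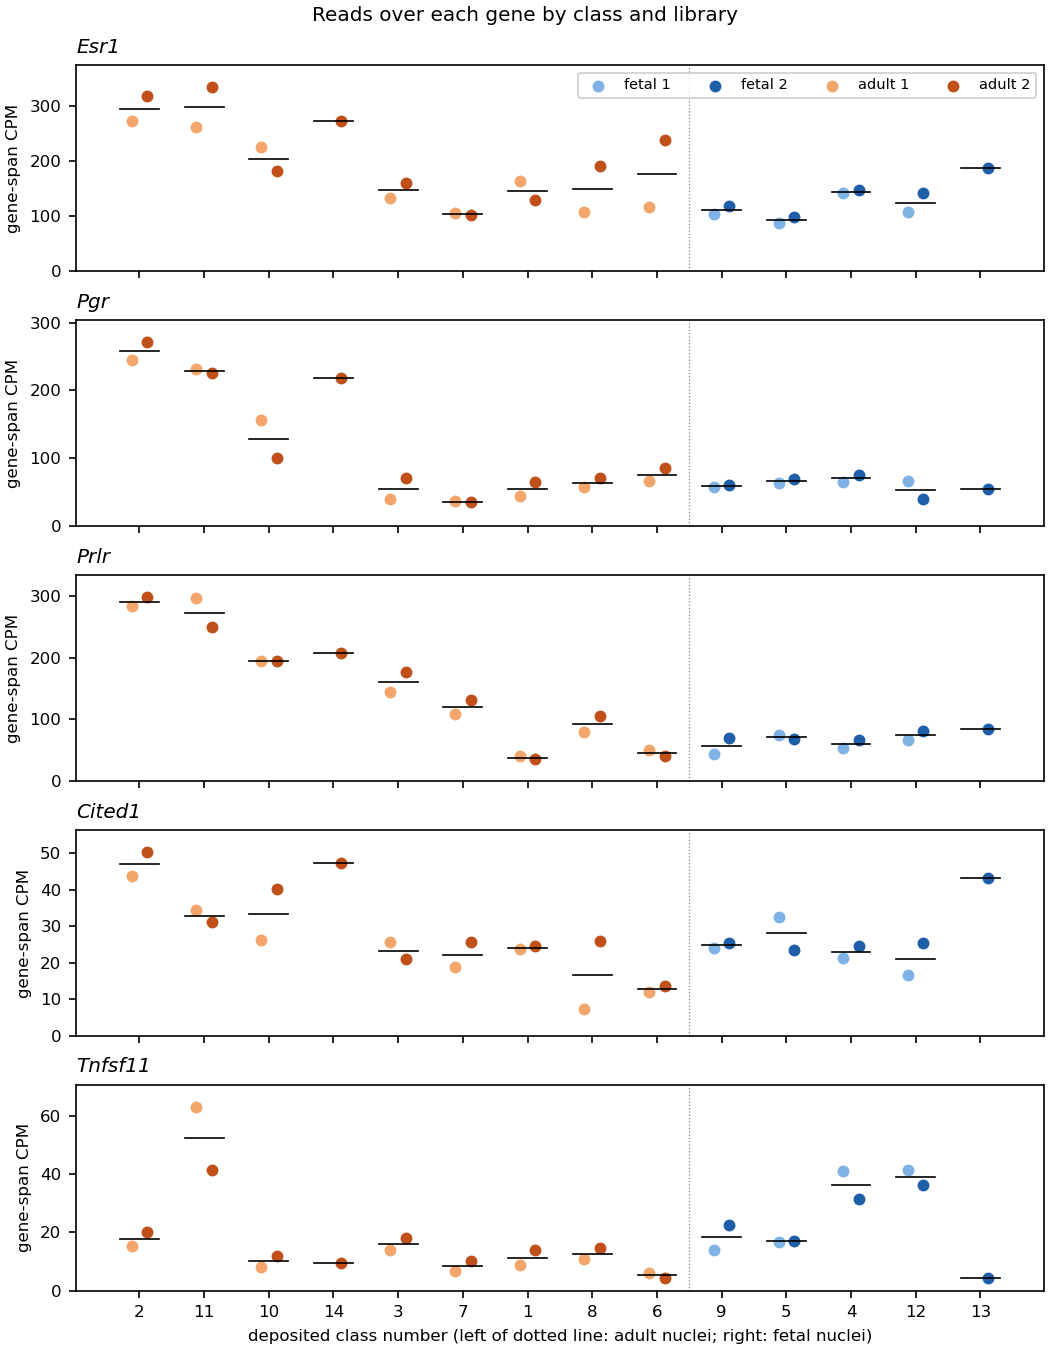
Reads over each gene, in CPM of the class and library (y axis), for the 14 deposited classes (x axis), with 1 point per library of at least 50 nuclei and a bar at the mean. Esr1, Pgr and Prlr are highest in classes 2 and 11, Prlr is next in classes 10, 14 and 3, and Tnfsf11 is highest in class 11, with 63.0 and 41.4 CPM, and in fetal classes 12 and 4.

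Across the means of the 14 classes, log2 levels of Esr1 and Pgr correlated at r = 0.879 and those of Pgr and Prlr at 0.727, while Tnfsf11 had r between -0.0013 and 0.24 with the other 4 genes. These describe 14 points, several from the same libraries. The genes most like Esr1 by this measure were Nt5dc1, Plrg1 and Klra2 (r = 0.940, 0.934 and 0.934). Those most like Pgr were Mfn2, Rgs1 and Tlcd4 (0.943, 0.941 and 0.932), and those most like Prlr were Tnip3, Cutal and Snx29 (0.950, 0.928 and 0.924). For Cited1 they were Slc17a9, Cdc123 and Fam149b (0.962, 0.928 and 0.917), and for Tnfsf11 they were Zfp407, Gucy2c and Mmel1 (0.845, 0.830 and 0.829). None of the 5 genes was among the 3 nearest of another, out of 16711 genes compared. Even so, the r of Esr1 with Pgr was above that of 99.8% of genes. For Pgr with Prlr the share was 98.2% and for Esr1 with Prlr 97.3%. For Cited1 with the receptor genes it was 93.8% to 95.1%, and for Tnfsf11 with the other 4 genes 47.9% to 72.1%.

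The regions around the genes show where along each locus the stages differed. CPM of a region is per 1000000 reads over the regions of its own list, promoter or distal, in the library or class. Levels of the promoter and distal lists are thus on different scales and cannot be set beside each other or beside gene-span CPM. Of the 109 distal regions with enough reads, 46 were called, 39 lower and 7 higher in fetal nuclei, and of 17 promoter regions 7 were called, all lower. Over all tested regions 35.3% of distal regions were called, 18.8% lower and 16.6% higher, and 21.5% of promoter regions, 11% lower and 10.5% higher. By locus, the called shares of distal regions were 55.6% at Prlr (15 of 27), 52.2% at Pgr (12 of 23), 37.5% at Esr1 (12 of 32), 35.7% at Cited1 (5 of 14) and 15.4% at Tnfsf11 (2 of 13). In either direction, Esr1 and Cited1 were therefore near the share of all distal regions and Tnfsf11 below it. By direction, 11 of the 32 Esr1 regions were lower in fetal nuclei and 1 was higher, and at Cited1 4 of 14 were lower and 1 higher. Median log2 differences of the distal regions were -1.85 at Pgr, -1.76 at Prlr, -1.06 at Esr1, -0.22 at Cited1 and 0.18 at Tnfsf11, against -0.013 over all distal regions tested. The class groups compared were adult classes 2 and 11, 3 and 7, and 1 and 8, and fetal classes 5 and 9, 4, and 12. Of these 6 groups, adult classes 2 and 11 had the highest level in 57 of the 109 distal regions, against 25.6% of all distal regions with enough reads. The distal regions named in the next paragraphs were chosen by a large called stage difference or by their level in classes 2 and 11. Large differences and high levels there are thus partly set by that choice. Promoter regions near a start were named whatever their values, so start and distal regions named here are not a like-for-like comparison.

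**Figure D3:**
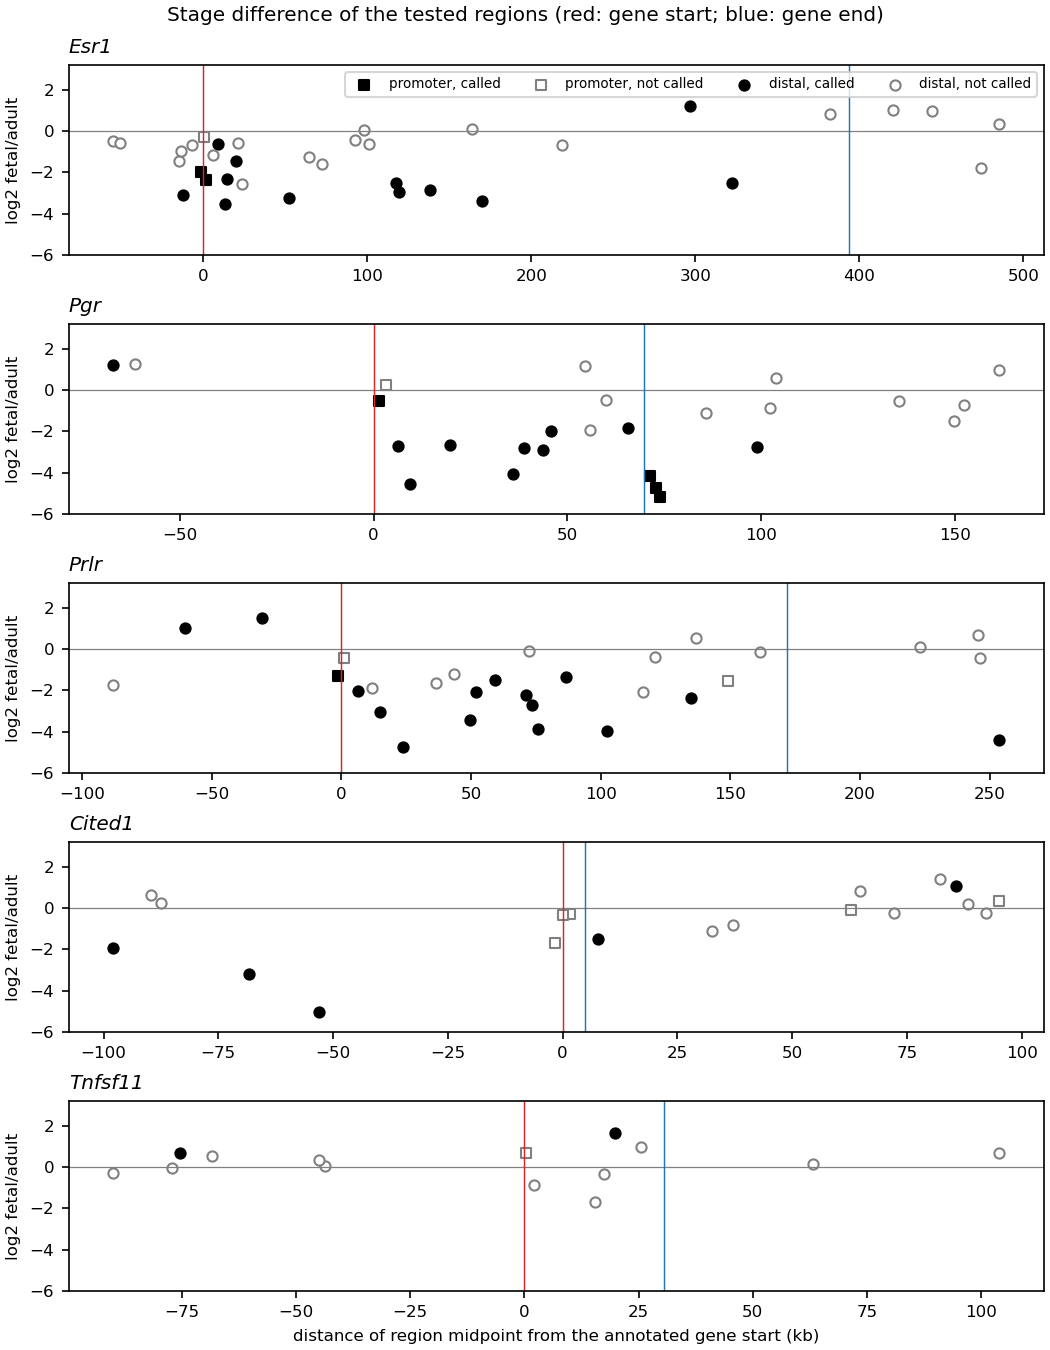
Log2 difference (fetal over adult, edgeR) of each tested region on the y axis against the distance of its midpoint from the annotated gene start in kb on the x axis. Squares are promoter-list and circles distal regions, filled where called, and 2 called Pgr regions without a fetal read are not drawn. Around Pgr and Prlr most called regions lie below 0 within the gene, and the 3 lowest Pgr squares sit just past the gene end.

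At Pgr, the region over the RefSeq start site, which lies 0.933 kb inside the gene span, differed less between the stages than the regions past the gene end described next. Distances are counted from the first base of the gene span. The region at chr9:8899812-8900811, which holds that site, was at 46.6 and 58.7 CPM in fetal and 68.7 and 84.8 in adult libraries. The stages did not overlap and the log2 difference was -0.51 (SE 0.177, edgeR adjusted p = 0.0282). That call was lost without fetal replicate 1 (-0.38) or adult replicate 2 (-0.36), by DESeq2 (-0.52) and with scaling by total reads (-0.52), and the sign turned without classes 2 and 11 (0.31). This region was open in each of the 6 class groups, from 21.9 and 57.9 CPM in adult basal-like nuclei to 111 and 136 in mature luminal-like nuclei, and fetal luminal-like nuclei had 51.8 and 63.0. A neighbour at chr9:8901531-8902530 was at 63.1 and 61.5 CPM in fetal and 52.7 and 51.3 in adult libraries and did not pass the test. Another region, over the first base of the gene span at chr9:8898058-8899057, had 2 and 0 fetal and 19 and 10 adult reads, too few for the test.

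Past the other end of the gene lay 3 regions of the authors' promoter list, 1747, 3064 and 4234 bases beyond the annotated Pgr end, where RefSeq lists no start site. They were chosen for description after their values were seen. The first, chr9:8969859-8970858, had 2 and 10 reads in the fetal and 132 and 200 in the adult libraries. Within the adult libraries it was at 81.8 and 90.6 CPM in mature luminal-like nuclei, 0 and 6.56 in luminal progenitor-like and 0 and 2.32 in basal-like nuclei. The second, chr9:8971176-8972175, had 0 and 4 fetal and 70 and 97 adult reads, and the third, chr9:8972346-8973345, had 0 and 5 fetal and 142 and 137 adult reads. Their log2 differences were -4.18, -4.74 and -5.19 (edgeR adjusted p = 1.48e-13, 2.38e-09 and 2.4e-13). Outside classes 2 and 11, none of the other 5 class groups had more than 6.56 CPM in any of the 3, whereas the region over the RefSeq start was open in all 6 groups. Classes 6, 10, 13 and 14 are in none of these groups. Class 10 had 62.5 and 54.6 CPM in the first region, 57.3 and 41.0 in the second and 26.0 and 81.9 in the last, on 5 to 12 reads each. Class 14 had 114 CPM in the first region, on 14 reads of adult replicate 2, and the stromal-like class 6 had 65.6 there on 9 reads of that library and none in adult replicate 1. Of the fetal reads of the first region, 2 in replicate 1 and 4 in replicate 2 came from class 6. Without classes 2 and 11 the first and the last region were still called, at -2.41 and -3.03, and the second had too few reads for the test. Without class 6 the first was at -5.13. All fetal reads of the second and the third came from replicate 2, so the sizes rest on few reads. Without that library the fetal side is at 0 and the fitted values, -9.05 and -9.81, depend on the prior count of the fit.

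Within the Pgr gene, distal regions 6.30 and 38.8 kb after the first base (chr9:8904699-8905698 and chr9:8937202-8938201) fell by 2.73 and 2.81 on the log2 scale. The first held 2 and 8 fetal against 41 and 61 adult reads, and its level in mature luminal-like nuclei was 14.2 and 17.5 CPM against 1.00 and 0 in luminal progenitor-like nuclei. A region 65.7 kb after the start (chr9:8964123-8965122) fell by 1.85, a call lost without classes 2 and 11 (-0.88). A region 99.1 kb after it, inside the span of the neighbouring gene Arhgap42 (chr9:8997475-8998474), fell by 2.76, from 7.30 and 9.30 CPM in adult to 1.71 and 0.969 in fetal libraries. Regions 50.6 and 17.6 kb before the start had no fetal read. The first had 14 and 42 adult reads and the other 11 and 32. Against 3 reads over the fetal libraries they were at least 12.1-fold and 9.28-fold higher in adult nuclei, bounds for listed reads that would be smaller for fragments. In the opposite direction, a region 67.2 kb before the start (chr9:8831174-8832173) rose by 1.23 (edgeR adjusted p = 0.0017).

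At Prlr, the regions on either side of the first start site are given first. The region just after the first start site, chr15:10177857-10178856, was at 34.3 and 31.8 CPM in fetal and 43.3 and 44.0 in adult libraries and did not pass (log2 -0.41, edgeR adjusted p = 0.182). The region just before it, chr15:10175561-10176560, was at 13.7 and 12.8 CPM in fetal and 33.0 and 31.1 in adult libraries, with a log2 difference of -1.28 (SE 0.296, edgeR adjusted p = 0.000799). That call was lost without classes 2 and 11 (-0.88). Deeper in the gene, the region 23.9 kb after the start (chr15:10200592-10201591) had 2 and 6 fetal against 154 and 176 adult reads, a log2 difference of -4.73 (SE 0.439, edgeR adjusted p = 6.94e-11). It was at 48.7 and 43.2 CPM in mature luminal-like, 9.02 and 3.90 in luminal progenitor-like and 0 and 0 in adult basal-like nuclei.

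A region 15.1 kb after the start (chr15:10191841-10192840) behaved differently by class. It was at 41.0 and 47.9 CPM in mature luminal-like nuclei and at 30.1 and 28.3 in luminal progenitor-like nuclei, but at 0 and 3.71 in adult basal-like and 6.25 and 4.15 in fetal luminal-like nuclei. Its stage difference was -3.07 (SE 0.320, edgeR adjusted p = 9.86e-10), and -2.54 without classes 2 and 11 (edgeR adjusted p = 2.27e-05). Unlike the Esr1 and Pgr gene spans, the Prlr span also kept its call in that setting, at -0.90 against -1.56. The part of this region in the span difference was not tested. Further regions 49.7 and 71.1 kb after the start fell by 3.44 and 2.24, the first by 5.79 without fetal replicate 1 and by 1.91 without fetal replicate 2. Regions 60.1 and 30.5 kb before it (chr15:10116654-10117653 and chr15:10146242-10147241) rose by 1.03 and 1.52 (edgeR adjusted p = 0.00276 and 0.00282).

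Reads around the later Prlr start sites, whose windows are printed above, were few, and most were adult. Within 1000 bases of start 2 there were 0 and 2 fetal and 15 and 26 adult reads, and of start 3 there were 0 and 6 fetal and 30 and 21 adult reads. Given as RPM, reads per 1000000 reads of the listed nuclei, mature luminal-like nuclei had 1.91 and 2.69 at start 2 and 3.83 and 2.32 at start 3. At start 1 the same nuclei had 15.7 and 13 RPM, luminal progenitor-like nuclei had 20.0 and 18.1, and the fetal libraries as a whole had 11.4 and 13.1. Of the 3 Prlr windows, the one without a matched string was thus the one open in both stages. At Esr1, start 2 does hold the STAT string and was open in both stages, with 4.31 and 5.32 fetal and 4.34 and 5.54 adult RPM, which overlapped.

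At Esr1, the region over the first start site, chr10:4611669-4612668, did not pass the test. It was at 23.3 and 31.2 CPM in fetal and 23.6 and 43.8 in adult libraries, which overlapped, with a log2 difference of -0.28 that turned to 0.24 without adult replicate 2. Its level in fetal basal-like nuclei, 49.5 and 65.2 CPM, was as high as in adult basal-like (35.7 and 52.1) and mature luminal-like nuclei (29.6 and 52.4). Regions on either side of it fell. The region 1.68 kb before the start (chr10:4609808-4610807) was at 8.23 and 7.94 CPM in fetal and 27.0 and 36.3 in adult libraries, a log2 difference of -1.98 (SE 0.329, edgeR adjusted p = 4.31e-06). In the adult it was open in all groups, with 23.3 and 35.9 CPM in mature luminal-like, 36.8 and 28.7 in luminal progenitor-like and 16.5 and 52.1 in basal-like nuclei. The region 1.46 kb after the start had only 6 and 4 fetal reads, and its difference of -2.37 lost its call without fetal replicate 2 (-1.44) or adult replicate 2 (-1.64), and with reads assigned by their midpoint (-1.92).

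Within Esr1, a region 13.2 kb after the start (chr10:4624651-4625650) had 2 and 18 fetal and 148 and 197 adult reads, a log2 difference of -3.53 (SE 0.380, edgeR adjusted p = 2.01e-09). It was at 53.5 and 52.1 CPM in mature luminal-like nuclei and at 4.01 and 1.95 in luminal progenitor-like nuclei, with no read in adult basal-like nuclei, fetal class 4 or fetal class 12. Without classes 2 and 11 its difference was -1.27 and did not pass. A region 12.3 kb before the start (chr10:4599219-4600218) fell by 3.10, or by 2.05 without classes 2 and 11, and a region 170.0 kb after it (chr10:4781491-4782490) fell by 3.38. By contrast, a region 8.77 kb after the start (chr10:4620259-4621258) was open across groups, from 19.5 and 12.8 CPM in fetal class 12 to 28.8 and 43.3 in adult basal-like nuclei, and fell by 0.61 (edgeR adjusted p = 0.0333). That call was lost by DESeq2 (-0.66), without fetal replicate 2 (-0.44) and with reads assigned by their midpoint (-0.40). The region 297 kb after the start (chr10:4908417-4909416) rose by 1.22 (edgeR adjusted p = 0.0469).

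At Cited1, none of the 5 promoter regions of the locus passed the test. The region over the start site, chrX:102251529-102252528, was at 50.7 and 55.0 CPM in fetal and 58.8 and 74.4 in adult libraries, a log2 difference of -0.33 (edgeR adjusted p = 0.205). It was at 91.0 and 98.0 CPM in mature luminal-like nuclei, against 38.5 and 49.2 in luminal progenitor-like and 53.8 and 55.2 in fetal luminal-like nuclei. Distal regions 53.0 and 68.4 kb before the start, both inside the span of the neighbouring gene Hdac8, did fall. The nearer one (chrX:102304686-102305685) had 0 and 2 fetal and 52 and 53 adult reads (log2 -5.02, edgeR adjusted p = 2.87e-06, and -8.39 without fetal replicate 2, when no fetal read is left), and the farther one (chrX:102320102-102321101) had 2 and 4 fetal and 35 and 52 adult reads (log2 -3.17). The farther one had no read in adult luminal progenitor-like or basal-like nuclei. A region 7.66 kb after the start (chrX:102244018-102245017) fell by 1.48, a call lost without fetal replicate 1 (-0.98), adult replicate 1 (-1.42) or classes 2 and 11 (-0.28), while without fetal replicate 2 it fell by 3.30. One 97.9 kb before the start fell by 1.93, a call lost without fetal replicate 2 (-1.9). DESeq2 called neither.

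At Tnfsf11, both called regions rose in fetal nuclei. The region 19.9 kb after the start, inside the gene (chr14:78287646-78288645), was at 15.8 and 14.2 CPM in fetal and 3.83 and 5.37 in adult libraries, a log2 difference of 1.67 (SE 0.369, edgeR adjusted p = 0.000418), or 1.08 without classes 2 and 11 (edgeR adjusted p = 0.0457). It was at 34.3 and 14.9 CPM in fetal class 4 and 39.0 and 32.6 in fetal class 12, the classes with the highest fetal level over the gene, and at 1.62 and 2.07 in mature luminal-like nuclei. The other lay 75.3 kb before the start (chr14:78382815-78383814). It was at 50.1 and 39.9 CPM in fetal and 29.5 and 26.3 in adult libraries (log2 0.67, edgeR adjusted p = 0.0128), a call lost without fetal replicate 1 (0.52), adult replicate 2 (0.47) or classes 2 and 11 (0.27), by DESeq2 (0.62) and with no filter on low reads (0.52). Luminal progenitor-like nuclei had 54.1 and 46.3 CPM and fetal luminal-like nuclei 62.5 and 44.7 there, against 13.8 and 20.7 in mature luminal-like nuclei.

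The region over the Tnfsf11 start (chr14:78307262-78308261) had 16 and 49 fetal and 11 and 50 adult reads and did not pass the test (log2 0.71). Between classes 2 and 11 it differed as the gene did, with 1.75 and 12.1 CPM in class 2 and 28.8 and 30.0 in class 11. A region 2.17 kb after the start (chr14:78305374-78306373) was at 0.522 and 3.75 CPM in class 2 and at 18.2 and 13.6 in class 11, on 10 and 17 reads. In both regions the lower class 11 value lay above the higher class 2 value. Both lie inside the window counted for the gene, so their reads are part of the gene level and no separate evidence.

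**Figure D4:**
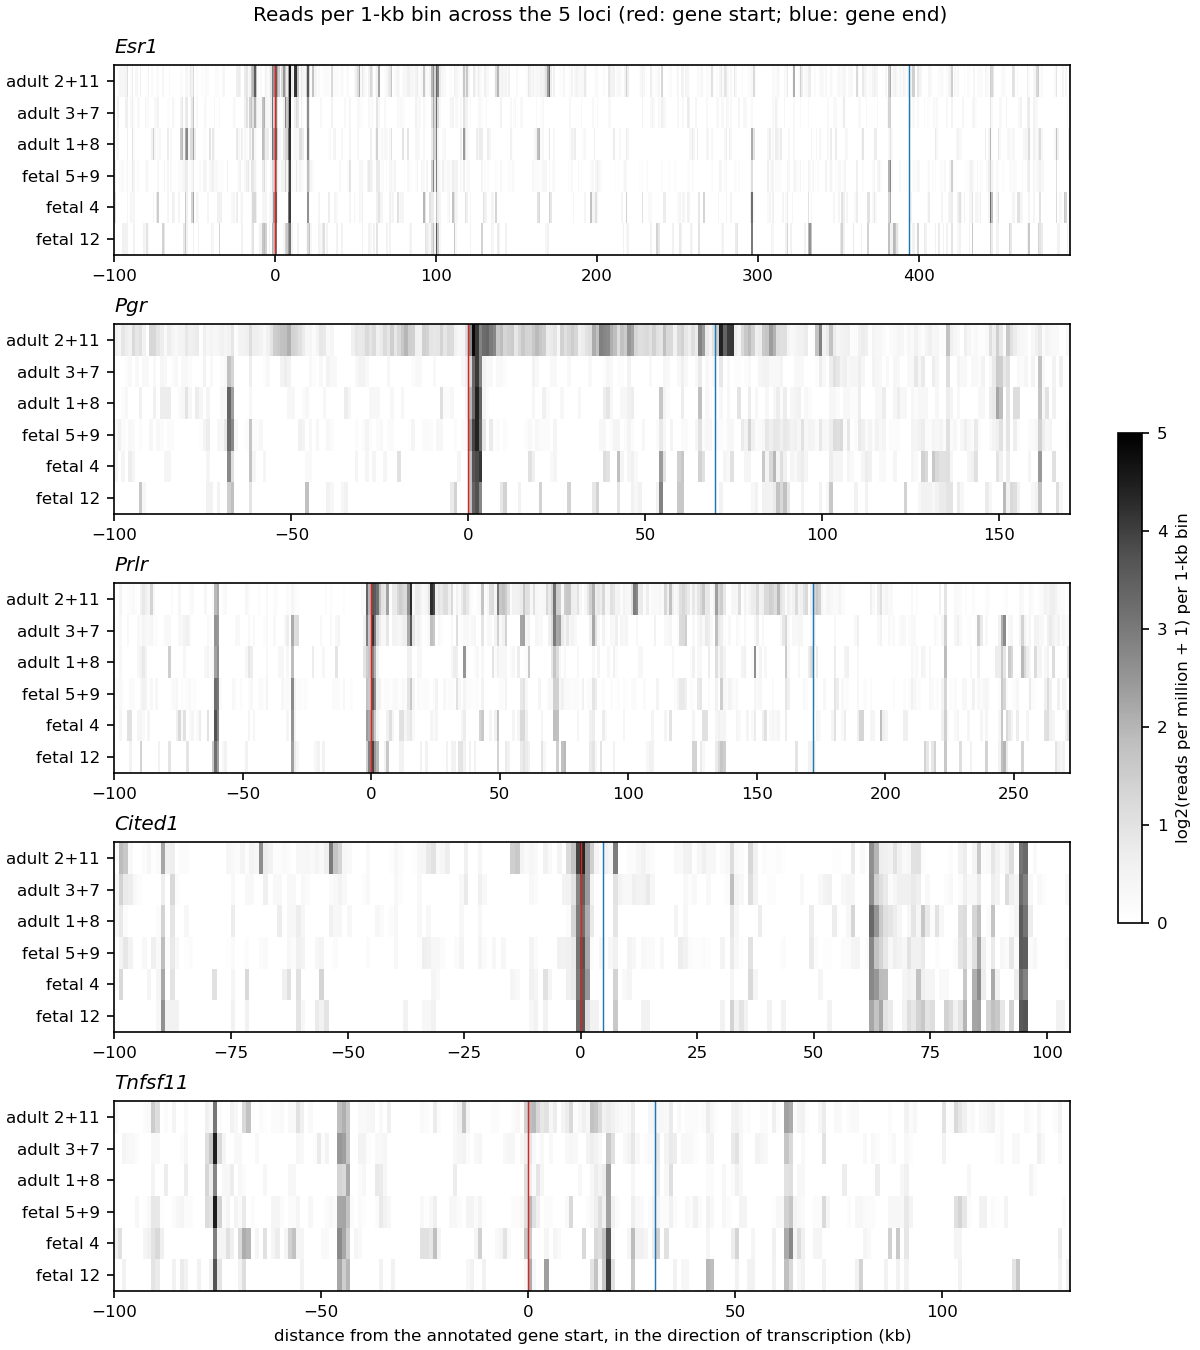
RPM (reads per 1000000 reads of the class group) in bins of 1 kb, on a log2 scale with 1 added (grey level), by distance from the annotated gene start in kb (x axis), for 6 groups of classes (rows, mean of the 2 libraries of the stage). The start regions of Pgr, Prlr and Cited1 are shaded in every row, while the bins past the Pgr end and those 13.2 kb into Esr1 and 23.9 kb into Prlr are dark in the row of adult classes 2 and 11.

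The deposited co-accessibility scores, which are computed over all nuclei and have no replicate, were read for pairs of these regions. For Pgr, the 3 pairs with the highest score between a region within 2000 bases of the start and another region of the locus joined the start region to the 3 regions past the gene end, at 0.379, 0.340 and 0.270. The 3 regions past the end scored 0.559 to 0.612 with each other. For Prlr the highest start pair joined the region before the start to the region 23.9 kb into the gene (0.275), and the region 15.1 kb in scored 0.159 and 0.149 with the regions before and after the start. For Esr1 the region after the start was joined to the region 13.2 kb in at 0.221, while that region scored 0.509 with the region 170.0 kb in and 0.403 with the one 12.3 kb before the start. For Cited1 the start region scored 0.186 with the region 7.66 kb after it and 0.127 with the region 53.0 kb before it. No pair of the Tnfsf11 start with the locus scored above 0, and the highest pair of the locus, 0.145, joined regions 75.3 and 77.1 kb before the start. A score of 0.25 or more was reached by 4.81% of the 478 scored pairs at Pgr, 1.25% of 559 at Prlr and 0.640% of 625 at Esr1, and by no pair at Cited1 (of 210) or Tnfsf11 (of 153). Over the whole deposited list it was reached by 0.514% of 6359756 pairs, and by 0.634% of the 3567155 pairs whose regions start within 200000 bases of each other, so the Esr1 share was near that of all pairs.

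The authors' gene accessibility score, pooled over the 7846 nuclei, was above 0 in 14.6% of nuclei for Pgr, 6.11% for Esr1, 5.91% for Cited1, 5.51% for Prlr and 0.803% for Tnfsf11. Its mean for Pgr was above 88.3% of 11327 genes, and its mean for Tnfsf11 above 5.92%. These columns name no sample, so the scores were not compared between the stages.

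The Esr1 and Pgr motif scores ask a different question, namely how accessible the regions with a given binding motif are across the genome. The score is a chromVAR deviation centred near 0, and it reads a motif, not the protein. The Esr1 motif was at -0.581 and -0.776 in fetal and 0.387 and 0.346 in adult libraries, without overlap, a difference of -1.05 (SE 0.0742, limma adjusted p = 0.000163). The Pgr motif was at -0.178 and -0.135 in fetal and 0.106 and 0.111 in adult libraries, a difference of -0.27 (SE 0.0448, limma adjusted p = 0.00336). Both were called under every alternative run, and without classes 2 and 11 the differences were -0.78 for the Esr1 and -0.42 for the Pgr motif. However, 67.9% of 427 motifs were called, 35.6% lower in fetal nuclei, so a call alone sets these motifs apart little. The Esr1 difference was the 37th most negative of 427 and the Pgr difference the 122nd, and the Ctcf motif, which did not pass, differed by 0.28.

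By class, the Esr1 motif score was 0.676 and 0.913 in class 2, 0.683 and 0.826 in class 11, and 0.644 and 0.944 in class 10. The stromal-like class 6, at 0.899 and 0.828, was as high as these. Luminal progenitor-like classes 3 and 7 were at 0.229 and 0.275 on average, the adult basal-like classes 1 and 8 at -0.242 and -0.588, and the fetal classes between -0.334 (class 9) and -1.35 (class 12). Across the 14 class means the score correlated with the log2 level over the Esr1 gene at r = 0.611, a description of 14 points.

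The Pgr motif score did not follow the Pgr gene. Classes 2 and 11, with the highest levels over Pgr, scored -0.094 and -0.060 and -0.270 and -0.248, and class 11 was lower than all but 1 class. The highest scores were in the stromal-like class 6 (0.630 and 1.18), the basal-like class 1 (0.376 and 0.329) and the luminal progenitor-like class 7 (0.292 and 0.382). Across class means the r with the log2 level over Pgr was -0.077. The motif columns most like Esr1 across classes were those of the nuclear receptors Nr1h5, Rarg and Rxra (r = 0.991, 0.990 and 0.987). The column most like Pgr was that of Nr3c1, the glucocorticoid receptor, at 0.902, and Stat5a was at 0.804.

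**Figure D5:**
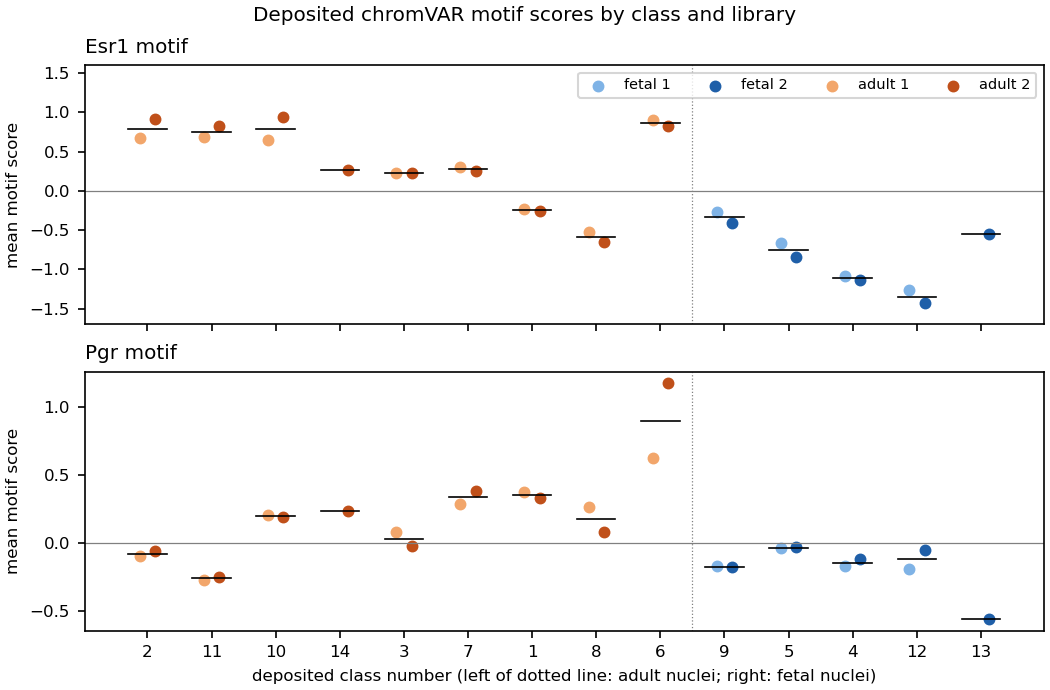
Mean deposited motif score (y axis) of the Esr1 and Pgr motifs for the 14 classes (x axis), with 1 point per library of at least 50 nuclei and a bar at the mean. The Esr1 motif is highest in classes 6, 2, 10 and 11 and below 0 in every fetal class, while the Pgr motif is below 0 in classes 2 and 11, at -0.077 and -0.259 on average.

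Other genes of these pathways were read from 4 lists, whose counts stand against 22.2% of all gene spans called, 11.3% higher and 10.9% lower in fetal nuclei. Of 12 estrogen receptor partners and coregulators, 1 rose and 3 fell, with a median log2 difference of -0.096 against 0.011 over all gene spans. Foxa1, a pioneer factor for the estrogen receptor, was at 74.1 and 73.2 CPM in fetal and 138 and 133 in adult libraries and fell by 0.88 (edgeR adjusted p = 0.00014). The coregulator gene Ncoa2 fell by 0.43, and Tbx3, a transcription factor of mammary development, rose by 0.45. By class, Tbx3 was at 232 and 199 CPM in adult mature luminal-like and 216 and 229 in fetal luminal-like nuclei. It was at 92.4 and 107 in luminal progenitor-like and 148 and 127 in adult basal-like nuclei. Of 12 estrogen and progesterone response genes, 2 rose and 3 fell (median -0.27, against 22.2% of all gene spans called). Areg, the EGF receptor ligand amphiregulin, was at 13.3 and 17.0 CPM in fetal and 58.9 and 58.4 in adult libraries, a fall of 1.91 (edgeR adjusted p = 8.5e-06) numerically larger than that of any receptor gene here. By class, adult Areg was at 103 and 111 CPM in mature luminal-like nuclei but at 15.6 and 14.7 in luminal progenitor-like and 18.9 and 15.9 in basal-like nuclei, and the fetal classes 4, 5 and 9 lay between 10.4 and 25.5. Foxa1 was at 208 and 215 CPM in mature luminal-like, 83.4 and 73.1 in luminal progenitor-like and 45.9 and 53.3 in basal-like nuclei of the adult. Areg, Foxa1, Greb1, Wnt4 and Tbx3 are among the mature luminal markers used to name classes 2 and 11. Levels of these genes there are therefore partly set by that naming. Greb1 and Wnt4 fell by 0.66 and 0.64, and Id4, which rose by 0.69, was the largest rise of that list. Adult Greb1 was at 113 and 130 CPM in mature luminal-like but 24.6 and 30.7 in luminal progenitor-like nuclei. Fetal luminal-like nuclei had 39.3 and 49.1. For Wnt4 these levels were 134 and 124, 107 and 83.7, and 69.8 and 75.9.

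In the prolactin pathway none of 10 genes rose and 2 fell (median -0.13), a count near the 22.2% of all gene spans called. These were Stat5a and Stat5b, the transcription factors downstream of the prolactin receptor, which fell by 0.68 and 0.65 (edgeR adjusted p = 0.00165 and 0.00142). By class, adult Stat5a was at 133 and 115 CPM in mature luminal-like, 74.9 and 65.9 in luminal progenitor-like and 64.0 and 47.7 in basal-like nuclei. Adult Stat5b was at 171 and 167, 158 and 121, and 109 and 91.3 in that order. Fetal luminal-like nuclei had 59.4 and 59.5 for Stat5a and 98.1 and 104 for Stat5b. Jak2, the kinase bound to the receptor, differed by -0.25 and did not pass. Of 10 paracrine partner genes, 3 rose and 3 fell (median -0.064, against 22.2% of all gene spans called). Lgr5, a receptor for R-spondins, was at 172 and 198 CPM in fetal and 54.9 and 73.0 in adult libraries and rose by 1.53 (edgeR adjusted p = 1.69e-05), and Lgr4 rose by 0.52. By class, adult Lgr5 was at 171 and 163 CPM in basal-like but 41.0 and 66.9 in luminal progenitor-like and 33.7 and 34.8 in mature luminal-like nuclei. Fetal basal-like nuclei had 176 and 189. Adult basal-like nuclei had 348 and 359 CPM of Lgr4, above fetal basal-like (333 and 296) and fetal luminal-like nuclei (251 and 259). Neither rise was thus seen against adult basal-like nuclei to the same extent. Rspo1, which encodes an R-spondin, fell by 0.58, and Fzd4 by 0.51. Tnfrsf11a, which encodes RANK, the receptor of the Tnfsf11 product, was at 54.8 and 68.0 CPM in fetal and 64.6 and 56.3 in adult libraries, which overlapped, with a log2 difference of 0.039.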

How the data were processed

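Single-nucleus ATAC-seq had been performed on 4 libraries. The submitters' processing notes name Bowtie2, MACS2, bedtools and the mm10 genome build, without roles or versions. The authors deposited read positions with nucleus barcodes, lists of kept barcodes, promoter and distal regions of 1000 bases, and a class number and a read count per nucleus. The deposited motif, gene accessibility and co-accessibility values are scores, made with chromVAR and Cicero per the labels' file names. Their settings, and the method behind the classes, are not given in the sources used here.

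Reads of listed nuclei were summed per library over gene spans (GRCm38.p6 RefSeq genes) and regions. Features averaging 10 or more reads over the 4 libraries were tested with edgeR 4.0.16 (quasi-likelihood test, TMM scaling) in R 4.3.3, and mean motif scores with limma 3.58.1. Calls required a Benjamini-Hochberg adjusted p under 0.05 over all features of that kind. The SE is the log2 difference divided by the square root of the F statistic. Library CPM values are TMM-scaled, and class CPM values are not. A marker was raised in a class when its log2(CPM + 2) exceeded its mean over the other classes, each counted equally, by at least 0.5. Scripts were tested on simulated data.

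The members, marker lists and gene lists were chosen with earlier results of these data known. Distal regions were named when among the 3 largest called differences or the 3 highest levels in classes 2 and 11 of a locus, with up to 5 links and all promoter regions within 2000 bases of a start. The 3 regions past the Pgr end, the regions that rose, the regions without fetal reads and the Tnfsf11 region 2.17 kb after its start were chosen after their values were seen. No genome sequence was used here, so motif strings were searched in RefSeq start windows and not in the regions, and exons and introns were not distinguished. Alternatives were DESeq2 1.42.0, other scalings and filters, another read assignment, a replicate block, and leaving out libraries or classes. Some items of the gene lists and motif columns are not reported here.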

Additional observations from a re-analysis of the deposited data

Results flagged for a closer look

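For 3 of the 5 genes, the difference between basal-like and luminal classes had opposite signs in the 2 stages in every library. The contrast is fetal class 4 against classes 5 and 9, and adult classes 1 and 8 against classes 2, 3, 7, 10 and 11, on log2(CPM + 1) over the gene. Class 10 was given no name and was counted here with the luminal classes, as all 5 general luminal markers were raised in it. For Esr1 the fetal mean was 0.45 (replicates at 0.50 and 0.39) and the adult mean -0.59 (-0.54 and -0.63). For Pgr these means were 0.21 (0.14 and 0.27) and -1.45 (-1.57 and -1.34). For Tnfsf11 they were 0.98 (1.40 and 0.56) and -0.70 (-0.79 and -0.61). Without class 10, a choice made after seeing the data, the adult values were -0.53 and -0.65 for Esr1, -1.56 and -1.37 for Pgr and -0.84 and -0.64 for Tnfsf11. The adult luminal side holds the mature luminal-like classes 2 and 11, which had 3 and 7 fetal nuclei. Luminal progenitor-like classes 3 and 7 over basal-like classes 1 and 8 were at log2 -0.27 and -0.28 for Esr1 and -0.41 and -0.37 for Pgr (adult replicates 1 and 2), with basal-like nuclei higher, as in the fetal libraries. For Tnfsf11 they were at -0.075 and -0.023, close to 0. Opposite signs of this kind were present for 2575 of 18808 gene spans, or 13.7%. The difference between the stages in this contrast was not tested, and the classes themselves were made from these nuclei.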

How the results depend on the processing

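With classes 2 and 11 left out, 2526 gene spans, 2433 promoter regions and 22105 distal regions were called, against 4174, 3992 and 43423 with all nuclei. In that setting Esr1 was at -0.29, Pgr at -0.13, Cited1 at 0.045 and Tnfsf11 at 1.02, and the start regions of Pgr and Cited1 were at 0.31 and 0.20. Some named regions then had too few reads for the test, so their differences were not checked there. These were Esr1 at 1.5 and 170.0 kb, Pgr at 6.3, 38.8, 72.8 and 99.1 kb and Prlr at 49.7 kb. The others were Cited1 at -53.0, -68.4 and -97.9 kb from the start. Windows of 1000 bases around the gene start gave 2586 calls among 12087 genes tested, against 18808 gene spans, with Esr1 at -0.52, Pgr at -0.28 and Prlr at -0.19. DESeq2 called 2622 promoter and 24872 distal regions, and a mean of at least 50 reads left 15301 distal calls among fewer regions tested. The labels do not say that equal replicate numbers pair the libraries. Deviations of equal-numbered libraries from their stage means correlated at 0.288 over gene spans, 0.0711 over promoter and 0.0626 over distal regions. A fit with the replicate number as a block called 6421 gene spans, and Cited1 then passed at -0.38 (edgeR adjusted p = 0.0495). Leaving out 1 library at a time gave 1812 to 4463 gene spans (1812 without fetal replicate 2 and 2507 without fetal replicate 1), 2514 to 3057 promoter regions, 30355 to 42172 distal regions and 209 to 265 motifs. The genes then ranged from -0.93 to -0.69 for Esr1, -1.30 to -1.20 for Pgr, -1.77 to -1.41 for Prlr, -0.44 to -0.30 for Cited1 and 0.23 to 0.48 for Tnfsf11. The motif scores ranged from -1.14 to -0.95 for Esr1 and -0.29 to -0.24 for Pgr. The Esr1 start region ranged from -0.65 to 0.24 and the Tnfsf11 region 63.1 kb after the start from -0.40 to 0.70, both turning sign without adult replicate 2, and the Tnfsf11 start region then passed at 1.91. The causes of these changes were not tested. The largest region differences rest on few fetal reads, which limits how precisely their size is known.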
